A study of Mus musculus with 6 samples.

Results

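The genes described here are the class II genes of the mouse major histocompatibility complex (MHC) and their partners, 9 of the 19056 genes that had a probe with a single gene symbol on the array. They were chosen by gene name, with no threshold on a measured value but with earlier results of these data known, and comprise the peptide-binding chains H2-Aa, H2-Ab1 and H2-Eb1, the invariant chain Cd74, the peptide-exchange chains H2-DMa, H2-DMb1 and H2-DMb2, their modulator H2-Oa, and the transcriptional coactivator Ciita. All 17 probes whose annotation carried 1 of these symbols were taken. The tissue was brown fat, which burns lipid to make heat, taken from Cd36 null mice (3 arrays) and from wild type mice (3 arrays). Mice of both genotypes were males of 3 months on a background given as C57BL6J, and both had been kept without food overnight. Cd36 is a scavenger receptor and fatty acid transporter of the cell surface, and the study set brown fat lacking it against brown fat that has it. The labels give no promoter or cell type for the Cd36 deletion and do not say whether an array holds 1 animal, a pool or a repeat of another array, so each p-value reflects how far these arrays varied, and some of that variation may be technical.

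MHC class II molecules are pairs of an alpha and a beta chain that display peptides from endocytosed proteins to CD4 T cells. The chains assemble with the invariant chain Cd74, which is cut away by proteases in endosomes and lysosomes, and H2-DM then exchanges the last fragment of Cd74 for a peptide, under the restraint of H2-DO. Dendritic cells, B cells and macrophages express the set constitutively or after activation, most other cells only after exposure to interferon gamma, and Ciita is the coactivator that turns the whole set on. In fat, resident macrophages and dendritic cells are well-known carriers of class II, and adipocytes have also been described as expressing it.

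Between 18139 and 19199 probes were detected on the null arrays, and between 16929 and 17035 on the wild type arrays, where detected means a scanner detection p under 0.05. The single Cd36 probe lay at background, detected on 0 of 3 null arrays and 1 of 3 wild type arrays, so it did not check the genotype labels. The brown adipocyte transcript Ucp1 was bright in both genotypes, at 14.78 ± 0.05 log2 in null and 14.90 ± 0.08 log2 in wild type tissue (SD, n = 3 each). Of 12 tested brown adipocyte markers, 2 rose, 1 fell and 9 did not pass an adjusted p of 0.05 in limma's moderated test. That is 16.7% higher, against 5.73% of all genes. Null minus wild type, Elovl3 differed by 2.53 log2 (adjusted p = 0.000306), Slc27a2 by 1.06 log2 (adjusted p = 0.0101) and Prdm16 by -0.71 log2 (adjusted p = 0.0249). With each array left out in turn, Elovl3 was called in 6 of 6 fits, Slc27a2 in 5 and Prdm16 in 1. Muscle and liver transcripts differed between arrays of 1 genotype. The mean level of 12 muscle genes stood at 0.53, -0.03 and -1.87 log2 from the wild type mean on null replicates 1 to 3, and that of 13 hepatocyte genes at 4.37, 1.61 and 2.04 log2. With 3 arrays per genotype, precision is limited throughout by their number.

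The peptide-binding chains, the invariant chain and the H2-DM chains of class II were higher in Cd36 null tissue, while Ciita did not pass. Of the 17 probes, 13 passed the filter of detection on at least 3 arrays, and 12 of these 13 were detected on all 6 arrays. All 12 rose, and the remaining tested probe was that of Ciita. For comparison, 5.01% of the 17912 tested probes passed as higher in limma's moderated test with a threshold of 0.05 on the adjusted p, and 2.23% as lower. Counted by gene, with each gene represented by its brightest tested probe, 7 of 8 rose and 0 fell, against 5.73% of 10151 genes higher and 2.11% lower. The median difference of these 8 genes, null minus wild type, was 1.12 log2, against -0.03 log2 over all genes tested. In each of the 8 genes every null array lay above every wild type array, a pattern found in 15.6% of all genes tested, and the same held for all 13 tested probes, against 13.6% of all probes. The 9th gene, H2-Oa, lay near background and was not tested. RNA was taken from whole tissue, so a larger number of class II-bearing cells and more class II RNA per cell cannot be told apart.

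**Figure D1:**
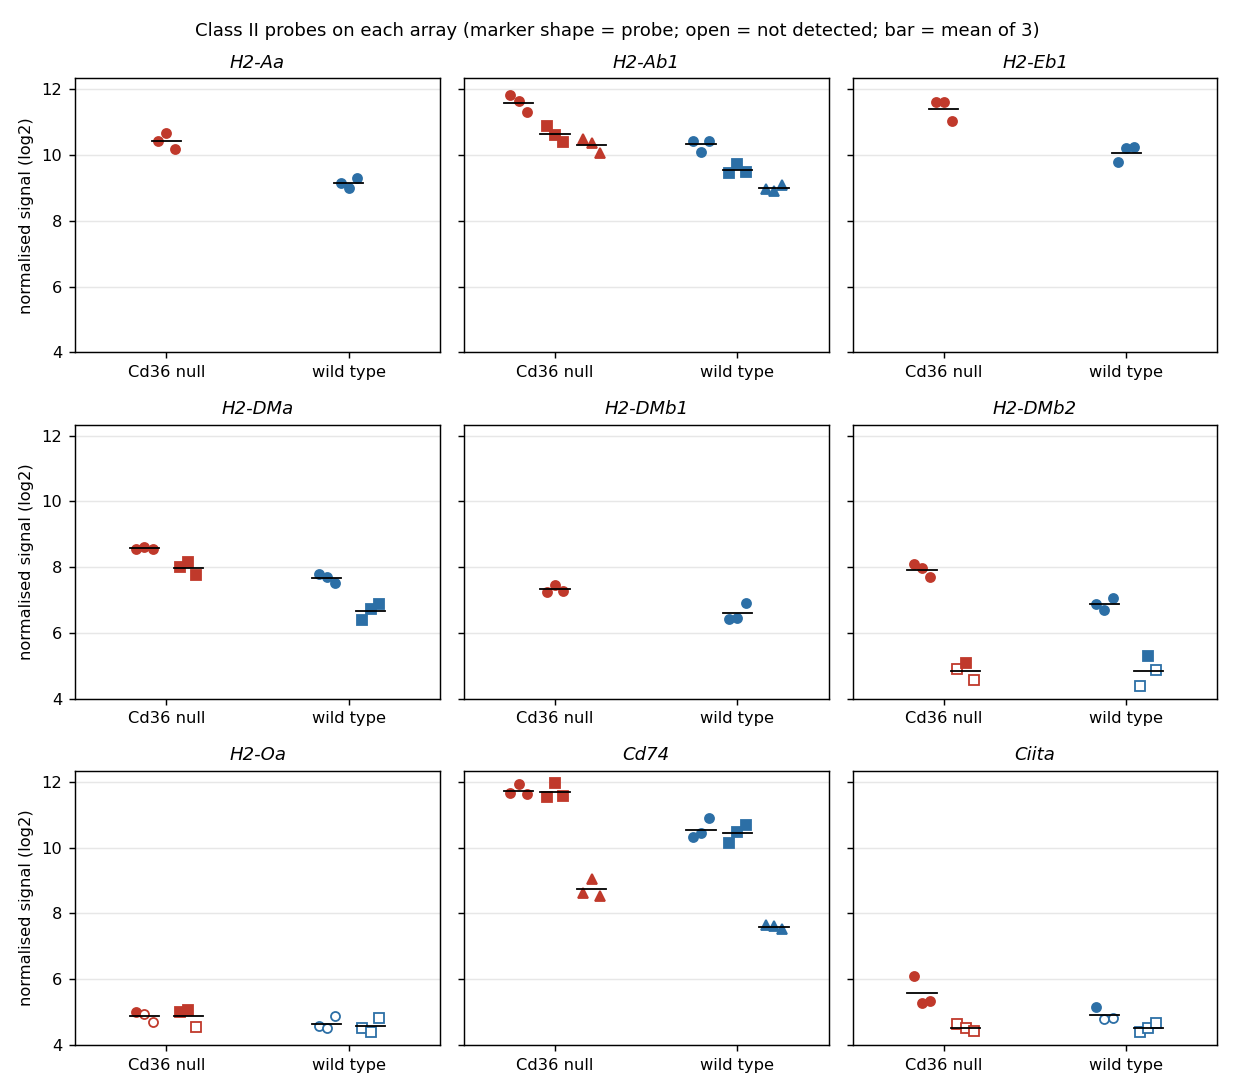
Normalised log2 signal of the 17 class II probes (vertical axis) on the 3 Cd36 null arrays (red, left) and the 3 wild type arrays (blue, right) of each panel; marker shape separates the probes of a gene, open markers are not detected and bars are means. The null arrays lie above the wild type arrays for every tested probe, while both H2-Oa probes, the dim H2-DMb2 probe and the dim Ciita probe stay near the floor in both genotypes.

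Class II promoters are known for an X box, bound by the RFX complex, followed by a Y box, bound by NF-Y, onto which Ciita is recruited. Stretches of 60 bases around a Y box letter match are shown because this element is common to class II genes, and all of those shown except H2-Oa, which was not tested, rose. Promoter sequences of RefSeq for build GRCm38.p6 covered 6 of the 9 genes, and H2-Ab1, Cd74 and Ciita had no entry used here. Capitals mark ATTGG, the core of the Y box, and, where present, AACNNATG, letters from the X box chosen after these promoters had been read. All lie on chromosome 17, are written 5′ to 3′ on the strand of the gene, and end before the annotated start of the transcript.
H2-Aa (chr17:34287857-34287916, minus strand): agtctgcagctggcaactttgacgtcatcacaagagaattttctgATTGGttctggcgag
H2-Eb1 (chr17:34305763-34305822, plus strand): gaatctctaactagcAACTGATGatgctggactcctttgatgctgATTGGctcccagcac
H2-DMb1 (chr17:34153085-34153144, plus strand): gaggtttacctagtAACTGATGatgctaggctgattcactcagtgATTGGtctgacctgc
H2-DMb2 (chr17:34145114-34145173, plus strand): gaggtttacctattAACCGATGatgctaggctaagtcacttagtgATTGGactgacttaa
H2-Oa (chr17:34092291-34092350, plus strand): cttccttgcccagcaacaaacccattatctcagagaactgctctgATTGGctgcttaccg
H2-Eb1, H2-DMb1 and H2-DMb2 held AACNNATG followed by ATTGG, with 22, 23 and 23 bases between them. Searched on both strands with 10 to 40 bases between the motifs, this pair was found in 0.265% of the 32851 RefSeq promoters of 300 bases, while AACNNATG alone was found in 8.86% and ATTGG alone in 37.4%. The motifs do not overlap each other. H2-Aa and H2-Oa held ATTGG without AACNNATG. Neither promoter listed for H2-DMa held AACNNATG, and the second of them held ATTGG once. By name, and not by a rule on its matches, H2-DMa was left out of the stretches shown. The H2-DMb1 and H2-DMb2 stretches are identical at 51 of 60 bases, and the other pairs at 15 to 28. A letter match is a description of these windows and not a measured binding site.

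The classical peptide-binding chains rose on each of their 5 probes. H2-Aa, the alpha chain of the I-A molecule, had values of 10.42, 10.66 and 10.20 log2 on null replicates 1 to 3, against 9.16, 9.01 and 9.30 log2 on wild type replicates 1 to 3. The lowest null array stood well clear of the highest wild type array. The difference for H2-Aa was 1.27 ± 0.18 log2 (SE, adjusted p = 0.00381, 3 arrays on each side). H2-Ab1, the beta chain that pairs with H2-Aa, had 11.82, 11.63 and 11.31 log2 by its brightest probe on the null arrays, against 10.45, 10.10 and 10.44 log2 on the wild type arrays. That probe rose by 1.26 ± 0.19 log2 (adjusted p = 0.00537). The other probes of H2-Ab1 rose as well, by 1.07 log2 (adjusted p = 0.00943) and 1.31 log2 (adjusted p = 0.00265), so that 3 probes for this transcript gave calls in 1 direction. H2-Eb1, the beta chain of the I-E molecule, had 11.61, 11.60 and 11.03 log2 on the null arrays, against 9.79, 10.21 and 10.24 log2 on the wild type arrays. Null replicate 3 was the lowest of the null arrays for each of these chains and still lay above all wild type arrays. H2-Eb1 rose by 1.34 ± 0.21 log2 (adjusted p = 0.00722), the largest difference among the brightest probes of the 8 genes.

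The partner chain of H2-Eb1 was not detected. H2-Ea, the alpha chain of I-E, carries a promoter deletion in C57BL/6 mice and was detected on 0 of 3 null arrays and 0 of 3 wild type arrays. The minor beta chain gene H2-Eb2 was near background too, with its brightest probe detected on 1 of 3 null arrays and 1 of 3 wild type arrays. H2-Eb1 thus rose beside no detected alpha chain transcript of I-E, and H2-Aa and H2-Ab1 formed the single classical pair in which both chains were detected.

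Cd74, the invariant chain that guards the peptide groove and steers class II to endosomes, rose on all 3 of its probes. By the brightest probe it had 11.67, 11.92 and 11.62 log2 on the null arrays, against 10.31, 10.44 and 10.89 log2 on the wild type arrays. The genotypes did not overlap, with wild type replicate 3 closest to the null arrays. The difference was 1.19 ± 0.20 log2 (SE, adjusted p = 0.00804). The second probe differed by 1.24 log2 (adjusted p = 0.00715) and the third, a much dimmer probe, by 1.14 log2 (adjusted p = 0.00723). Cd74 lies on chromosome 18, away from the class II chains on chromosome 17, and its difference lay within the range of theirs.

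The H2-DM genes, which encode the chaperone that loads peptide onto class II, also rose. H2-DMa, the alpha chain, had 8.56, 8.62 and 8.55 log2 by its brighter probe on the null arrays, against 7.80, 7.69 and 7.53 log2 on the wild type arrays. This was the tightest set of null values among the members, with an SD of 0.04, and the difference was 0.90 ± 0.15 log2 (SE, adjusted p = 0.0093). The second H2-DMa probe differed by 1.31 ± 0.19 log2 (adjusted p = 0.00428), and the 95% intervals of its 2 probes overlapped (0.56 to 1.25 and 0.88 to 1.74 log2). H2-DMb1, a beta chain, had 7.24, 7.46 and 7.29 log2 on the null arrays, against 6.43, 6.46 and 6.91 log2 on the wild type arrays. H2-DMb2, its duplicate, had 8.10, 7.97 and 7.70 log2 by its brighter probe on the null arrays, against 6.88, 6.69 and 7.07 log2 on the wild type arrays. Neither beta chain overlapped between genotypes. H2-DMb2 rose by 1.04 ± 0.18 log2 (adjusted p = 0.00943), a call that missed the threshold without wild type replicate 2 (adjusted p = 0.0508). H2-DMb1 rose by 0.73 ± 0.18 log2 (adjusted p = 0.0459), the call closest to the threshold. It did not pass without null replicate 1, 2 or 3 or wild type replicate 1 or 2, with adjusted p between 0.0747 and 0.168, and its difference then lay between 0.64 and 0.77 log2. H2-DMb1 and H2-DMb2 are near copies, the probe sequences were not used here, and how far each probe reads the other gene is uncertain. A second H2-DMb2 probe lay at background in both genotypes, detected on 1 of 3 null arrays and 1 of 3 wild type arrays, and was not tested.

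H2-Oa, the alpha chain of the H2-DO modulator best known from B cells, was barely above background. Its brighter probe on average had 4.999, 4.94 and 4.68 log2 on the null arrays, against 4.56, 4.50 and 4.87 log2 on the wild type arrays. The other probe had 4.995, 5.07 and 4.54 log2 on the null arrays, against 4.51, 4.39 and 4.81 log2 on the wild type arrays. The genotypes overlapped on both probes, which were detected on 1 and 2 of 3 null arrays and on 0 of 3 wild type arrays. The partner chain H2-Ob was detected on 1 of 3 null arrays and 0 of 3 wild type arrays. With signals this close to background, no genotype difference in H2-DO could be measured.

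Ciita, the coactivator of all these genes, was itself dim and its difference did not pass. The brighter of its 2 probes had 6.10, 5.27 and 5.35 log2 on the null arrays, against 5.16, 4.78 and 4.82 log2 on the wild type arrays. It was detected on 3 of 3 null arrays and on 1 of 3 wild type arrays, with raw intensities of 167, 126 and 129 on the null arrays, against 111, 116 and 117 on the wild type arrays. Every null array lay above every wild type array, the lowest null array by a small margin over wild type replicate 1. The difference was 0.65 ± 0.24 log2 (SE, 95% interval 0.11 to 1.20, adjusted p = 0.155). Null replicate 1 was the highest array, and without it the difference was 0.39 log2. The second Ciita probe was detected on 0 of 3 null arrays and 0 of 3 wild type arrays.

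**Figure D2:**
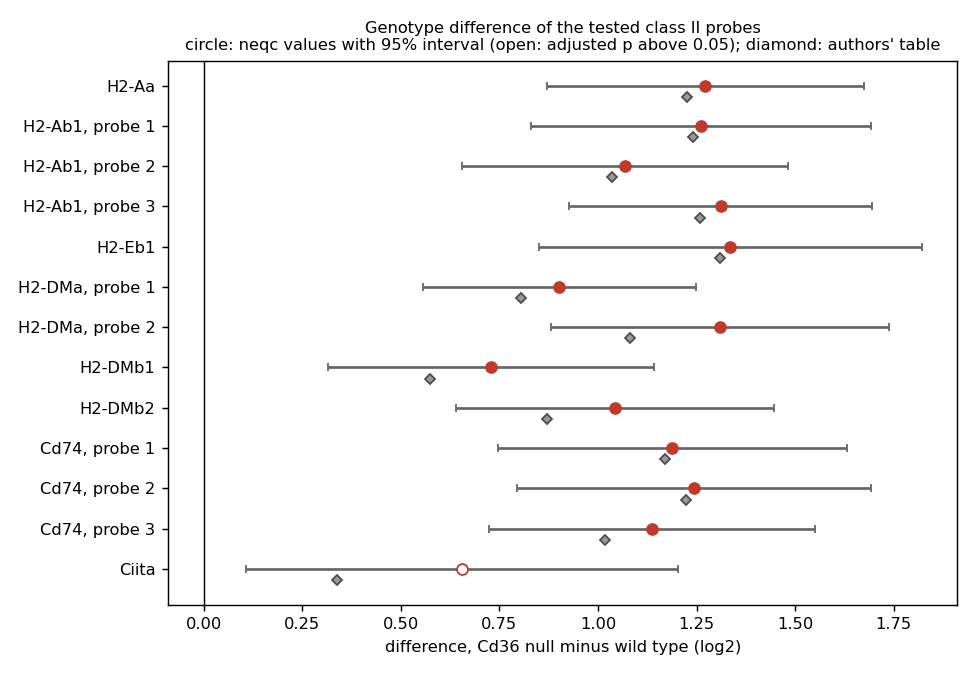
Difference between Cd36 null and wild type (horizontal axis, log2) for the 13 tested class II probes, with 95% intervals from limma; filled circles passed an adjusted p of 0.05 and grey diamonds are the differences in the authors' log2 table. The filled circles run from 0.73 for H2-DMb1 to 1.34 for H2-Eb1, the open circle of Ciita lies at 0.65, and the diamonds lie to the left of the circles.

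The called members ranged from 0.73 ± 0.18 log2 for H2-DMb1 to 1.34 ± 0.21 log2 for H2-Eb1 (SE). The 95% intervals of H2-Eb1 (0.85 to 1.82 log2) and H2-DMb1 (0.32 to 1.14 log2) overlapped. Whether these genes differ in how far they rose was not tested. The mean level of the 8 genes was 1.17, 1.12 and 0.86 log2 above the wild type mean on null replicates 1 to 3, and -0.03, -0.10 and 0.13 log2 from it on wild type replicates 1 to 3. On this mean, null replicate 3 was the lowest null array and wild type replicate 3 the highest wild type array, and the genotypes did not overlap. In the ranking of all 10151 genes by difference, H2-Eb1 stood at 225, H2-Aa at 258, H2-Ab1 at 261 and Cd74 at 288, so that many other genes rose by more.

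The authors' log2 table gave the same 7 calls. By the authors' deposited table, fitted with the same filter, 7 of the 8 genes were called higher and 0 lower, against 6.34% of all genes higher and 2.91% lower. In the authors' deposited table H2-Aa differed by 1.22 log2 (adjusted p = 0.00104) and H2-Eb1 by 1.31 log2 (adjusted p = 0.0025). The dim Ciita probe differed by 0.34 log2 in the authors' deposited table (adjusted p = 0.244). That table matches a larger offset, which shrinks the differences of dim probes.

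The class II genes lie together on chromosome 17 with genes of class I presentation between them. In RefSeq order the block runs from H2-Oa through Brd2, H2-DMa, H2-DMb2, H2-DMb1, Psmb9, Tap1, Psmb8, Tap2, H2-Ob, H2-Ab1, H2-Aa, H2-Eb1 and H2-Eb2 to Btnl2. Tap1, a subunit of the peptide pump that supplies class I molecules, rose by 0.68 ± 0.17 log2 (SE, adjusted p = 0.0439), a call that ended when any 1 of the 6 arrays was left out (highest adjusted p = 0.17). Tap2, the other subunit of that pump, differed by 0.05 ± 0.18 log2 (adjusted p = 0.915). Psmb9 and Psmb8, immunoproteasome subunits, differed by 0.76 ± 0.25 log2 (adjusted p = 0.114) and 0.67 ± 0.20 log2 (adjusted p = 0.0867) without passing. Psmb8 passed in 5 of the 16 alternatives, the authors' log2 table among them, and Psmb9 in 3 of 16, with a difference of 1.07 log2 without wild type replicate 3. A second, dimmer Psmb8 probe differed by 0.42 log2 (adjusted p = 0.371). Brd2, a bromodomain reader of acetylated chromatin, differed by 0.21 ± 0.16 log2 (adjusted p = 0.502). Of the tested genes of this block, all 6 class II genes passed, and of the 5 others Tap1 did. Over all 10151 genes tested, 5.73% were called higher. Psmb9 differed by about as much as the class II gene H2-DMb1. Whether members and neighbours differ in their change was not tested.

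**Figure D3:**
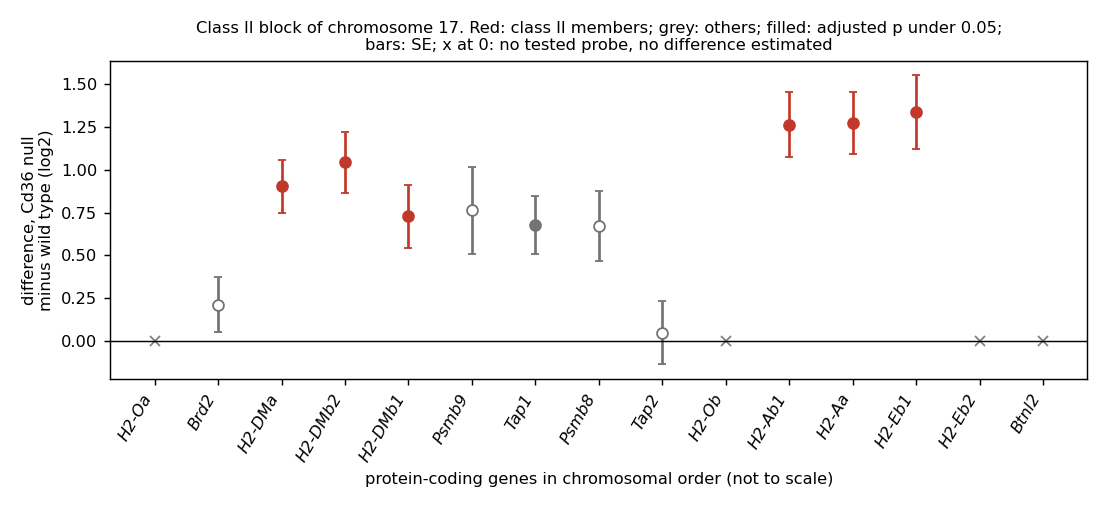
Difference between Cd36 null and wild type (vertical axis, log2, bars are SE) for the protein-coding genes of the class II block of chromosome 17 in their order along the chromosome, not to scale; red marks class II members, grey the other genes, filled points an adjusted p under 0.05 and crosses genes with no tested probe. H2-Ab1, H2-Aa and H2-Eb1 stand highest at 1.26 to 1.34, and Tap2 and Brd2 stand nearest 0 at 0.05 and 0.21.

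Few of the factors that act with or above Ciita passed. Of 13 tested genes from a list of class II transcription factors, 1 rose, 0 fell and 12 did not pass, or 7.69% higher, near the 5.73% of all genes (median difference 0.00 log2, against -0.03 over all genes). The gene that rose was Irf8, a transcription factor of macrophages and dendritic cells, by 1.07 ± 0.21 log2 (SE, adjusted p = 0.0163), and it did not pass without null replicate 2 (adjusted p = 0.0646) or without the filter. Irf8 was detected on 3 of 3 null arrays and 2 of 3 wild type arrays, so its null arrays alone met the filter. Its size is uncertain, as the wild type level lay near background, and ran from 0.43 to 1.24 log2 over the alternatives. Of 14 tested genes of the interferon gamma pathway, 1 rose, 0 fell and 13 did not pass, or 7.14% higher. The median of these 14 genes was 0.39 log2, against -0.03 over all genes, and 12 of them had a positive difference. That gene was Cxcl9, a chemokine induced by interferon gamma, which rose by 0.77 ± 0.16 log2 (SE, adjusted p = 0.0236) and did not pass without null replicate 2 or 3 or wild type replicate 1 or 2 (highest adjusted p = 0.108), whereas 4 genes of the list were called without wild type replicate 3. Both probes of Ifng, the gene of interferon gamma itself, were detected on 0 of 3 null arrays and 0 of 3 wild type arrays, as were both probes of Rfx5, an X box subunit. Ifng and Rfx5 were named after their values were seen.

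Genes that process antigen and cut the invariant chain were higher in part. Of 15 tested genes of class II processing and trafficking, 3 rose, 0 fell and 12 did not pass. That is 20% higher, against 5.73% of all genes (median 0.23 log2, against -0.03 over all genes). Ctsh, a lysosomal aminopeptidase, rose by 1.58 ± 0.20 log2 (SE, adjusted p = 0.00263), and its second probe by 1.41 log2. Lgmn, the asparaginyl endopeptidase that takes part in invariant chain cleavage, rose by 0.94 ± 0.15 log2 (adjusted p = 0.00682). Both of these calls held without each array in turn. Lamp1, a lysosomal membrane glycoprotein, rose by 0.63 ± 0.16 log2 (adjusted p = 0.0449), a call that ended when any 1 array was left out (highest adjusted p = 0.142). Ctss, the protease best known for the last cuts of Cd74, differed by 0.72 ± 0.20 log2 (adjusted p = 0.0644), and Ifi30, the lysosomal thiol reductase of this pathway, by 0.73 ± 0.20 log2 by its brighter probe (adjusted p = 0.059) and 0.03 log2 by the other. Both were named after their values were seen, and the brighter probe of each passed without wild type replicate 3.

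Class I presentation genes were higher in part. Of 21 tested genes, 6 rose, 0 fell and 15 did not pass. That is 28.6% higher, against 5.73% of all genes (median 0.57 log2, against -0.03 over all genes). A positive difference was found in 17 of the 21, and 9 were called higher in the authors' log2 table. Counts were 3 without null replicate 1, 4 without null replicate 3, 8 without wild type replicate 3, and 2 without null replicate 2, wild type replicate 1 or wild type replicate 2. H2-T23, a nonclassical class I heavy chain, rose by 0.98 ± 0.16 log2 (SE, adjusted p = 0.00874). H2-Q7, another nonclassical heavy chain, rose by 1.21 ± 0.21 log2 (adjusted p = 0.00932). H2-T10 rose by 1.29 ± 0.24 log2 (adjusted p = 0.0141) and H2-K1, a classical heavy chain, by 0.93 ± 0.20 log2 (adjusted p = 0.0251). The calls of H2-T10 and H2-K1 ended without null replicate 2, wild type replicate 1 or wild type replicate 2, and that of H2-K1 also without null replicate 1. A second H2-T10 probe differed by 0.90 log2 and did not pass (adjusted p = 0.0854), while the other tested probes of H2-T23 and H2-K1 passed. Class I heavy chains are close relatives of each other, so how far 1 probe reads several of them is uncertain.

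Among costimulatory molecules and receptors of class II, 1 of 7 tested genes rose and 0 fell, or 14.3% higher, against 5.73% of all genes. Of the 5 that were detected on all 6 arrays, 0 were called. When wild type replicate 3 was left out, 2 of the 7 were called. Cd86, a ligand that antigen-presenting cells show to T cells beside class II, had 3 of 3 null arrays and 1 of 3 wild type arrays detected and rose by 1.28 ± 0.19 log2 (SE, adjusted p = 0.00556). Its 3 null arrays alone met the filter, so this call rests on a probe kept through the group where it is high. The size of the difference is uncertain, as the wild type level lay near background, and ran from 0.475 to 1.47 log2 over the alternatives. Cd4, the T cell coreceptor that binds class II, was detected on 0 of 3 null arrays and 0 of 3 wild type arrays by both of its probes, and was named after its values were seen.

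Markers of cells that can carry class II moved unequally. Of 19 tested macrophage markers 14 rose, 0 fell and 5 did not pass (median 1.48 log2), or 73.7% higher, against 5.73% of all genes. All 3 null arrays and all 3 wild type arrays detected 17 of the 19, and 13 of those 17 rose. The summed linear signal of the 19 ran from 25960 to 27380 on the null arrays, against 6939 to 9103 on the wild type arrays. On the null arrays most of that sum came from Lyz1, Laptm5, Lyz2 and Gpnmb, so it says little of the dimmer markers. Of 6 tested dendritic cell markers 2 rose, 1 fell and 3 did not pass, or 33.3% higher. Their summed signal was 1248 to 1443 on the null arrays, against 856 to 1003 on the wild type arrays. The 2 that rose, Clec10a by 1.41 ± 0.16 log2 (adjusted p = 0.00188) and Mgl2 by 0.92 ± 0.17 log2 (adjusted p = 0.0129), encode lectins that macrophages also make. The call of Mgl2 was lost without wild type replicate 1 and without wild type replicate 2. A second Mgl2 probe differed by 0.49 log2 and did not pass (adjusted p = 0.234). Itgae, an integrin chain, differed by -0.67 ± 0.16 log2 (adjusted p = 0.039), a call that ended when any 1 array was left out (highest adjusted p = 0.156). Of the defining dendritic cell markers, Itgax was detected on no array, Flt3 on 0 of 3 null arrays and 1 of 3 wild type arrays, and Zbtb46 on all 6 arrays with a difference of -0.06 ± 0.19 log2 (adjusted p = 0.89). Flt3 and Zbtb46 were named after their values were seen.

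B cell markers were close to background. Of 11 on the array 3 were tested, and 0 rose, 0 fell and 3 did not pass, namely Cd72 at 0.83 ± 0.22 log2 (SE, adjusted p = 0.0562, passing without wild type replicate 3), Fcer2a at 0.24 ± 0.18 and Cd79b at 0.30 ± 0.23. Their summed signal was 168 to 197 on the null arrays, against 107 to 169 on the wild type arrays. The defining marker Ms4a1 was detected on 0 of 3 null arrays and 0 of 3 wild type arrays. T and NK cell markers lay near background in wild type tissue. Of the 11 that were tested, 6 were detected on no wild type array and passed the filter through the null arrays alone, so no count over the list is given. The 3 detected on all 6 arrays were Cd8b1, Thy1 and Prf1, named for that reason after their values were seen. Cd8b1, a T cell coreceptor chain, rose by 0.66 ± 0.16 log2 (adjusted p = 0.041), a call that ended when any 1 array was left out (highest adjusted p = 0.15). A second, much dimmer Cd8b1 probe rose by 1.14 log2 (adjusted p = 0.0226). Cd8a, the other CD8 chain, was detected on 0 of 3 null arrays and at most 1 of 3 wild type arrays by either probe. Cd8a was named after its values were seen, and what the bright Cd8b1 probe reads was not tested. Thy1 differed by 0.66 ± 0.18 log2 (adjusted p = 0.0692) and the perforin gene Prf1 by -0.05 ± 0.26 log2 (adjusted p = 0.945). The summed signal of the 11 was 3623 to 4123 on the null arrays, against 2468 to 2663 on the wild type arrays. Most of this sum came from the brighter Cd8b1 probe, so it says little of the other genes. By its brightest probe, which 3 of 3 null arrays and 0 of 3 wild type arrays detected, Il7r was at least 1.38-fold higher. That probe also passed the filter through the null arrays alone, so no p-value is given for it. The other 4 probes of Il7r lay near background, were not tested and differed by -0.055, 0.065, 0.020 and 0.024 log2. Macrophage markers were higher on the same arrays as the class II genes, and the part of macrophages, dendritic cells, B cells and T or NK cells in the class II result was not tested.

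Liver and muscle transcripts varied between null arrays, and the class II values without those arrays are given here. Of 13 tested hepatocyte markers 7 were detected on all 6 arrays, and 5 of those 7 rose, against 5.73% of all genes. Another 3 of the 13 were detected on no wild type array. The 13 had a summed signal of 19330 to 45030 on the null arrays, against 12150 to 15710 on the wild type arrays. On the wild type arrays most of that sum came from Hp, which differed by 0.18 ± 0.16 log2 (adjusted p = 0.574). All 13 differences were positive (median 2.91 log2). Ttr differed by 4.17 ± 0.81 log2 (adjusted p = 0.0167) and Serpina1b by 3.99 ± 0.79 log2 (adjusted p = 0.0178). Ambp, detected on 2 of 3 wild type arrays, differed by 3.99 ± 0.76 log2 (adjusted p = 0.0147). The mean level of the 13 lay 1.61 and 2.04 log2 above the wild type mean on null replicates 2 and 3. Leaving out null replicate 1 therefore does not take the liver difference away. None of the 13 was called without wild type replicate 1 or 2. The hepatocyte marker Alb was detected on 0 of 3 null arrays and 0 of 3 wild type arrays by its probe. Of 12 muscle markers 0 rose and 0 fell, with a summed signal of 45630 to 187400 on the null arrays, against 132900 to 137900 on the wild type arrays. Without null replicate 1, the array highest in liver transcripts, the median difference of the class II genes was 1.05 log2, with 6 of 8 called. Without null replicate 3, the array lowest in muscle transcripts, it was 1.20 log2, again with 6 of 8 called. In both cases H2-DMb1 was the gene whose call was lost.

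**Figure D4:**
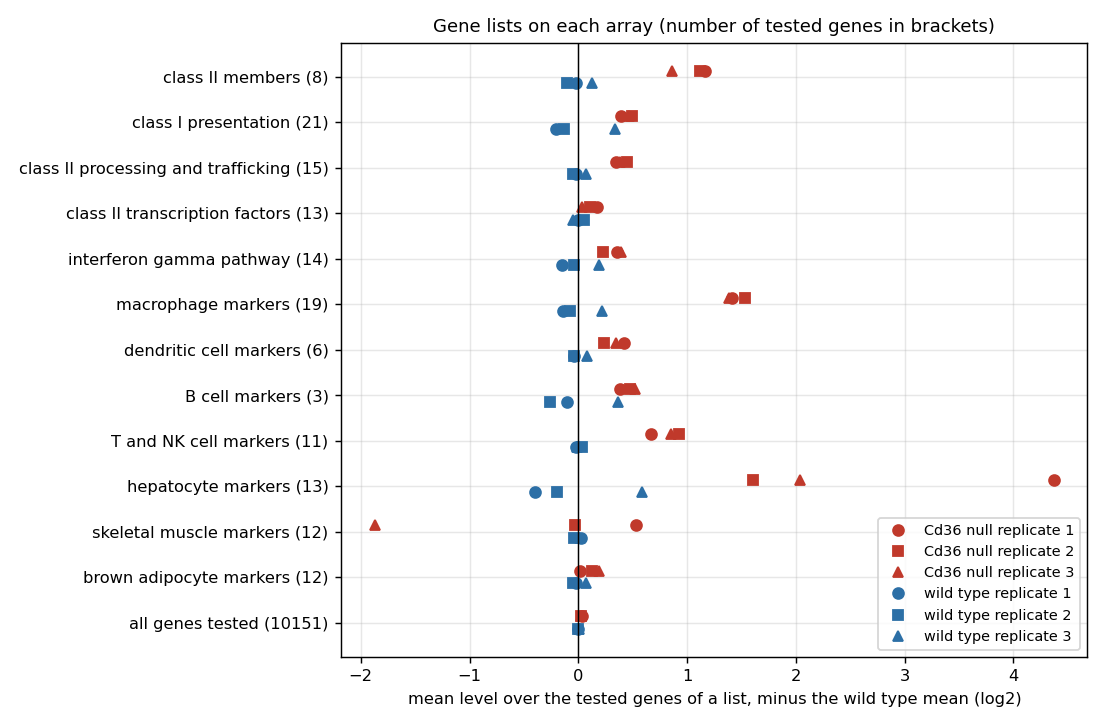
Mean level of the tested genes of each list on each array, minus the wild type mean (horizontal axis, log2), for the 3 Cd36 null arrays (red, upper points) and the 3 wild type arrays (blue, lower points) of each row. Class II members lie at 0.86 to 1.17 on the null arrays, macrophage markers at 1.39 to 1.53, and hepatocyte markers spread from 1.61 to 4.37.

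The genes whose profile over the 6 arrays was most like that of the class II members came from several functions. Likeness was the root mean square distance between the centred log2 values of a gene and the centred mean of the 8 members, taken over 9849 other genes. The closest were Ctsw, a cysteine protease of cytotoxic lymphocytes (distance 0.06 log2), C1qa, a complement subunit made by macrophages (0.07), Gsc, a homeobox factor of the embryo (0.07), the T cell adhesion molecule Cd2 (0.08), Hexa, a lysosomal hexosaminidase (0.08), and Dnmt3l, a cofactor of DNA methylation (0.09). C1qa had 8.59, 8.67 and 8.29 log2 on the null arrays, against 7.49, 7.38 and 7.48 log2 on the wild type arrays. Hexa had 10.25, 10.25 and 9.98 log2 on the null arrays, against 9.02, 9.16 and 9.38 log2 on the wild type arrays. In both, null replicate 3 was the lowest null array, as in the mean profile that chose them. Ctsw, Gsc and Cd2 were detected on 3 of 3 null arrays and 0 of 3 wild type arrays, so their wild type profiles are those of background. The call of Hexa missed the threshold without wild type replicate 2 (adjusted p = 0.0512).

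**Figure D5:**
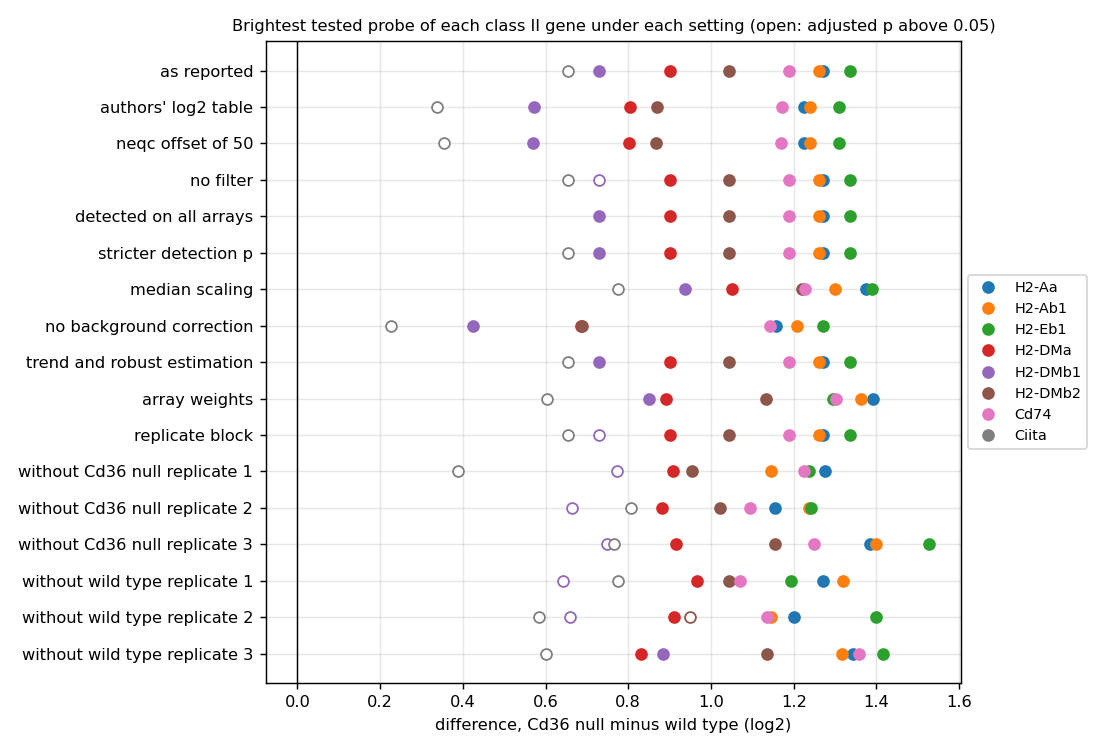
Difference between Cd36 null and wild type (horizontal axis, log2) of the brightest tested probe of each class II gene, as reported and under each of 16 alternatives (rows); filled points passed an adjusted p of 0.05. All points lie to the right of 0, H2-Aa, H2-Ab1, H2-Eb1, H2-DMa and Cd74 are filled in every row, and Ciita is open in each row in which it was tested.

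Of the class II calls, those of H2-DMb1 and H2-DMb2 were lost under some alternatives. Across 16 alternatives, H2-Aa lay between 1.16 and 1.39 log2, H2-Eb1 between 1.19 and 1.53 log2 and the brightest Cd74 probe between 1.07 and 1.36 log2, and each passed in all 16, as did the brightest probes of H2-Ab1 and H2-DMa. H2-DMb2 passed in 15 of 16 and H2-DMb1 in 9 of 16. Ciita passed in 0 of the 15 alternatives in which it was tested, with a difference between 0.23 and 0.81 log2. Over the whole array 897 probes were higher and 399 lower, so that 69.2% of calls were rises, against 85.6% when arrays were scaled by their medians in place of quantiles. Over all tested probes the median was -0.05 log2 with quantiles and 0.08 log2 with medians, and the class II median was 1.12 and 1.22 log2 on the same scales.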

How the data were processed

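RNA of 6 samples was measured on Illumina bead arrays of 1 colour, 3 per genotype. The deposited scanner table holds, per the file headers, an intensity for each of 46237 probes and array, not normalised between arrays. A p-value of detection accompanies every intensity in that deposited table. The authors' deposited value table holds log2 values of 45267 probes. The submitters' processing notes name limma without a version, and no source used here gives other steps. With an offset of 50, neqc came within 0.024 log2 of those values on every array, which settles their scale and direction.

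Here the intensities were processed by the neqc function (limma 3.58.1, R 4.3.3), with background inferred from detection p-values, an offset of 16 and quantile normalisation. A probe was tested if 3 or more arrays had a detection p under 0.05, which left 17912 probes of 10151 genes. Genotypes were compared with lmFit and eBayes, adjusted by Benjamini-Hochberg over all tested probes. Differences are null minus wild type. A probe detected on no array of a genotype is given as a bound, the brighter group's mean against, per array, the higher of the lowest detected signal and the probe's own. Fits were tested on simulated data. Of the 45267 probes, 34875 had 1 symbol in the platform annotation, 18 several and 10374 stayed unnamed. RefSeq (GRCm38.p6) held the gene of 34797 named probes. The array files name no build.

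Named genes are the 9 members, Cd36, and in each pathway list up to 4 genes of smallest p that passed. In each marker list up to 3 genes of smallest p are named, Nkg7 of the T and NK cell list aside. Defining markers detected on no array and the 6 genes of most similar profile are named too. Neighbours of the class II block are named by position. Members, lists and rules were chosen with earlier results of these data known. Alternatives covered the authors' values, the offset, filters, scaling, background, variance models, array weights, a replicate block, the choice of probe and leaving out each array. Arrays left out were dropped after normalisation.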

Additional observations from a re-analysis of the deposited data

How the results depend on the processing

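Under the 16 alternatives and under the rule that any probe of a gene may count, between 5 and 7 class II genes were called higher and 0 lower. Leaving out each array in turn gave 5 to 7 class II genes and 589 to 1043 probes over the whole array, against 1296 with all arrays, and array weights gave 2388 probes. The count of probes was 724 without null replicate 2, 704 without wild type replicate 1 and 589 without wild type replicate 2. With the replicate number as a block 6 class II genes and 868 probes were called, with H2-DMb1 lost (adjusted p = 0.0833). Same-numbered samples deviated together with correlations of 0.084, -0.018 and 0.03 for numbers 1 to 3, not every sample correlated best with its own number, and so the numbers were not taken as pairs. Without any filter 6 class II genes were called, as H2-DMb1 had an adjusted p of 0.0788 over more probes. Directions reversed for 5 context genes that had not passed. Leaving out each array in turn gave differences of -0.07 to 0.20 log2 for Tap2, negative without null replicate 1 (-0.02) or wild type replicate 1 (-0.07), and of -0.20 to 0.08 for Zbtb46, positive without wild type replicate 3. Zbtb46 was also positive with median scaling (0.15) and array weights (0.061). The muscle genes Ckm, Myh1 and Tnni2 ranged from -1.42 to 0.25, from -1.23 to 0.11 and from -0.96 to 0.10 log2, positive without null replicate 3. The cause was not tested. Signal over background limits what can be said of H2-Oa, Ciita and the second H2-DMb2 probe.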
